A study of Trametes versicolor and Gelatoporia subvermispora with 30 samples.

Results

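Gelatoporia subvermispora held 186 locus tags whose transcripts were at least 8 times as abundant on milled poplar wood as in any of 4 other kinds of culture. They are genes that the deposited files name by a CERSUDRAFT_ locus tag, selected on their measured levels. Each averaged at least 10 normalised CPM on poplar (CPM are gene counts relative to the scaled library total) and at least 8 times the mean of each other group. The files list 12313 genes, of which 10860 passed a filter on low counts, and the 186 make up 1.71% of those tested. With gene symbols included, 194 genes (1.79%) meet both thresholds. The rule applies after the filter, so all 186 passed it. Because the poplar values chose them, every comparison of these genes with poplar below is a description without a test. The files give no product name for a locus tag, so no function is assigned to any of the 186.

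The 15 G. subvermispora libraries formed 5 groups of 3. On poplar the fungus had 2 g of milled, autoclaved poplar per 25 mL and no cellobiose. The lignin group had 25 mg of lignin isolated from poplar per 25 mL together with 5 g per litre of cellobiose. The syringic acid group and the 4-hydroxybenzoic acid (4HBA) group had the same cellobiose and 2 mM of the acid, and the last group had the cellobiose alone. All used 1 defined mineral medium and were started from homogenised mycelium of richer seed cultures. The labels name no strain and do not tell whether the libraries of a group came from separate flasks, so p-values measure the spread between these libraries, which may be technical.

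G. subvermispora is a white-rot basidiomycete known for removing lignin from wood selectively. Wood presents cellulose and hemicelluloses, which fungi cut outside the cell, embedded in lignin, an aromatic polymer that secreted oxidative enzymes attack. Cellobiose is the disaccharide unit of cellulose, and 4HBA and syringic acid are small aromatic acids related to units of lignin. The poplar cultures differ from all others both in holding wood and in lacking added cellobiose, and these cannot be told apart.

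Gene counts were 24.7 to 50.3 mega-counts per library, and 3 counts, the limit that a count of 0 allows, equalled 0.0431 to 0.225 CPM (counting error only). The 3 cellobiose libraries and 4HBA replicate 1 stood apart. Their 10 most abundant genes took 32.7% to 43.5% of gene counts, against 4.07% to 7.95% in the other 11 libraries, and their TMM scaling factors were 0.426 to 0.643. Those factors were 0.883 to 0.953 for poplar and 1.28 to 1.48 for the remaining 8 libraries. Entries that name no gene took 24.2% to 27.9% of counts in the libraries that stood apart and 7.84% to 9.89% in the other 11. Library type below means only whether the 10 most abundant genes took more than 20% of gene counts. Poplar thus shared its library type with lignin, syringic acid and 4HBA replicates 2 and 3, but not with cellobiose. Its scaling factors lay apart from those of both sets. The labels of the lignin and syringic acid libraries carry a low line before the number, and those of the other groups do not. Poplar against lignin or syringic acid therefore crosses that mark, whose meaning is not given.

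The 186 locus tags together reached 109939, 113565 and 149169 CPM in the poplar libraries. Their sum averaged 4672 ± 161 CPM with lignin, 4819 ± 247 CPM with syringic acid, 6874 ± 303 CPM with 4HBA and 5912 ± 226 CPM on cellobiose (SD, n = 3 each). As an unscaled share of gene counts they took 11.3% ± 1.69 on poplar (SD, n = 3), 0.688% ± 0.0265 with lignin, 0.638% ± 0.0350 with syringic acid, 0.738% ± 0.373 with 4HBA and 0.350% ± 0.0143 on cellobiose. The order of lignin and syringic acid relative to cellobiose thus turned with the scaling: above cellobiose by share of counts, below it by normalised CPM. The 4HBA share was split by library type, at 0.308% in replicate 1 and 0.959% and 0.948% in replicates 2 and 3. Replicate 1 thus lay below the cellobiose libraries (0.335% to 0.364%) by share, and replicates 2 and 3 above them. The poplar libraries were far above the rest on both scales. In bulk RNA such as this, more cells expressing a gene and more RNA of it per cell cannot be told apart.

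The median member stood at 220.0 CPM on poplar, 7.95 CPM with lignin, 7.20 CPM with syringic acid, 9.64 CPM with 4HBA and 9.71 CPM on cellobiose. On poplar 125 members reached 100 CPM and 33 reached 1000 CPM. Most were still detected elsewhere. The members that averaged under 1 CPM numbered 16 with lignin, 23 with syringic acid, 13 with 4HBA and 13 on cellobiose, while 92 averaged 10 CPM or more on cellobiose. Only CERSUDRAFT_98140, singled out after its values were seen, had a count of 0 in any library, in 3 of the 2232 values outside poplar. It was at 35.3, 20.6 and 8.05 CPM on poplar and 0.450, 0.683 and 0.546 CPM with 4HBA. In no lignin, syringic acid or cellobiose library did it pass 0.228 CPM.

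**Figure D1:**
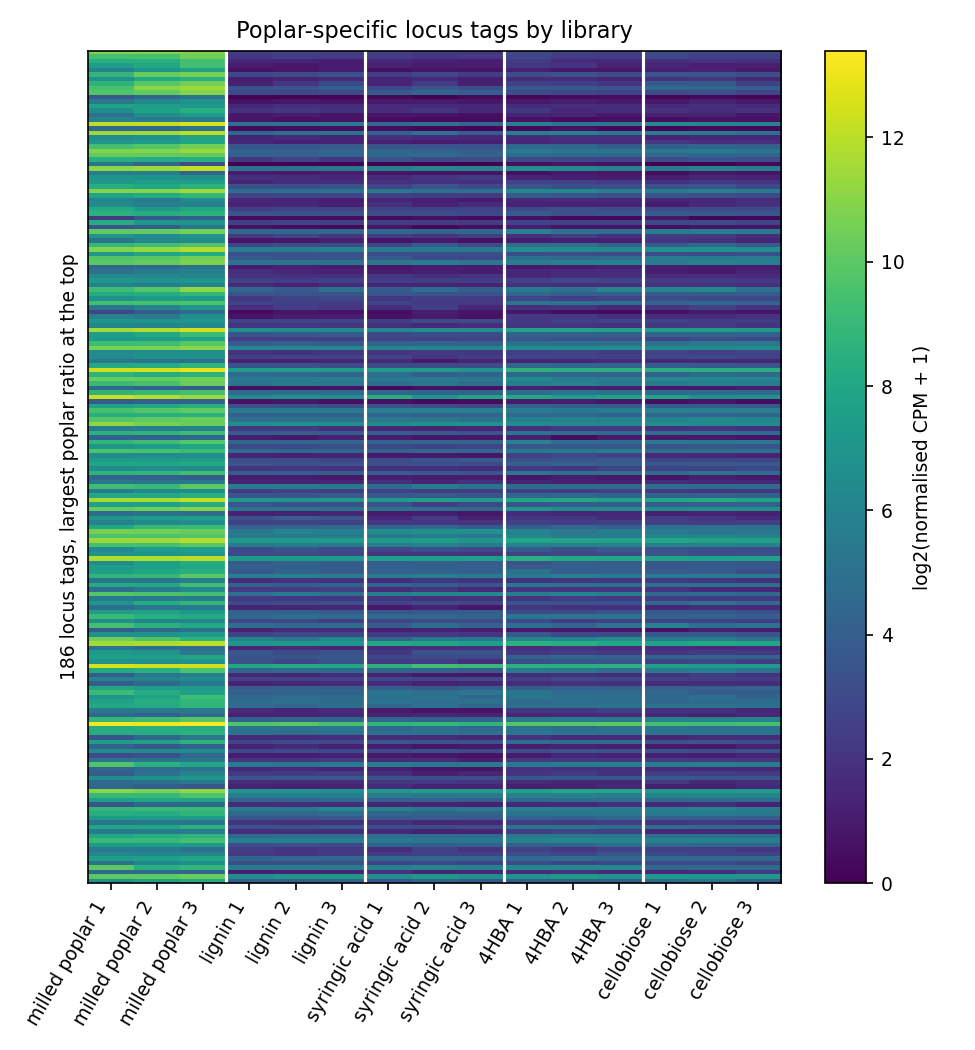
Level of the 186 locus tags in each of the 15 libraries, as log2 of normalised CPM plus 1. Rows are genes, with the largest ratio of poplar to the highest other group at the top, and the 3 poplar columns are brighter than the other 12 throughout.

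The ratio of the poplar mean to the highest other mean had a median of 15.7 and a range of 8.02 to 256. It was 16 or more for 88 members, 32 or more for 33, and 64 or more for 19. In all 186 the lowest poplar library exceeded the highest of the other 12, as it did for 27.2% of all tested genes. In 127 it did so by a factor of at least 8, as for 1.24% of all tested genes. In the fit over all genes the 186 were called higher in each poplar comparison, where the shares of tested genes called higher and lower were 37.8% and 41.5% against lignin, 38% and 41% against syringic acid, 35.9% and 39.8% against 4HBA, and 37.7% and 38.4% against cellobiose. The rule fixes these member counts, and nothing is read from them.

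The highest of the other groups was 4HBA for 85 members, cellobiose for 58, lignin for 22 and syringic acid for 21. The median ratio of poplar to each group was 23.2 for lignin, 27.4 for syringic acid, 17.2 for 4HBA and 19.9 for cellobiose.

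At the floor of 10 CPM the lowest members were CERSUDRAFT_123491 at 11.4 CPM and CERSUDRAFT_93427 at 13.2 CPM on poplar, and just outside lay CERSUDRAFT_110638 at 8.25 CPM and CERSUDRAFT_113129 at 7.86 CPM. At the ratio of 8 the lowest members were CERSUDRAFT_84954 with 8.02 and CERSUDRAFT_119738 with 8.04. CERSUDRAFT_67952 with 7.87 and CERSUDRAFT_95895 with 7.74 lay just outside. CERSUDRAFT_84954 had 118, 189 and 266 CPM in the 3 poplar libraries, so the edge lies within the spread between libraries.

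**Figure D2:**
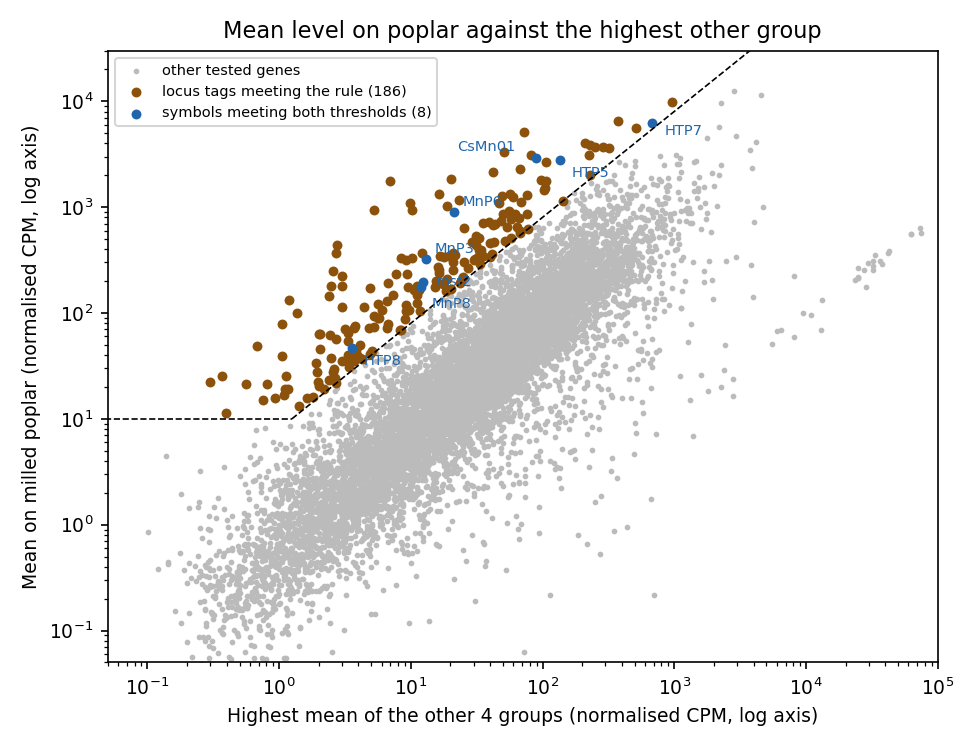
Mean on milled poplar against the highest mean of the other 4 groups, in normalised CPM on log axes, for tested genes above 0 and within the axis limits. Brown points are the 186 locus tags, blue points the 8 genes with symbols that also meet both thresholds, and dashed lines mark the floor of 10 CPM and the ratio of 8.

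CERSUDRAFT_161087 had the largest ratio of all, 256, and closely similar poplar libraries. It was at 1696, 1838 and 1806 CPM on poplar. It was at 4.45 to 4.85 CPM with lignin, 3.21 to 4.10 CPM with syringic acid, 5.32 to 6.68 CPM with 4HBA and 6.35 to 8.15 CPM on cellobiose. Its poplar mean was 1779.9 ± 74.8 CPM (SD, n = 3).

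CERSUDRAFT_114949 had 684, 691 and 1445 CPM on poplar and at most 6.55 CPM in any other library, a ratio of 179. CERSUDRAFT_45734 had 344, 342 and 638 CPM on poplar and at most 3.98 CPM elsewhere, a ratio of 162. In both genes poplar replicate 3 stood well above the other two. CERSUDRAFT_66107 was at 183, 266 and 668 CPM on poplar and at most 3.53 CPM elsewhere (ratio 138). CERSUDRAFT_100250, the least abundant of the 10 with the largest ratio, was at 60.2, 133 and 209 CPM on poplar and at most 1.55 CPM elsewhere (ratio 113). The other 5 of these 10 were CERSUDRAFT_115818, CERSUDRAFT_96116, CERSUDRAFT_115777, CERSUDRAFT_74699 and CERSUDRAFT_115780, with ratios of 81.3 to 111, and they lie near each other by gene number.

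**Figure D3:**
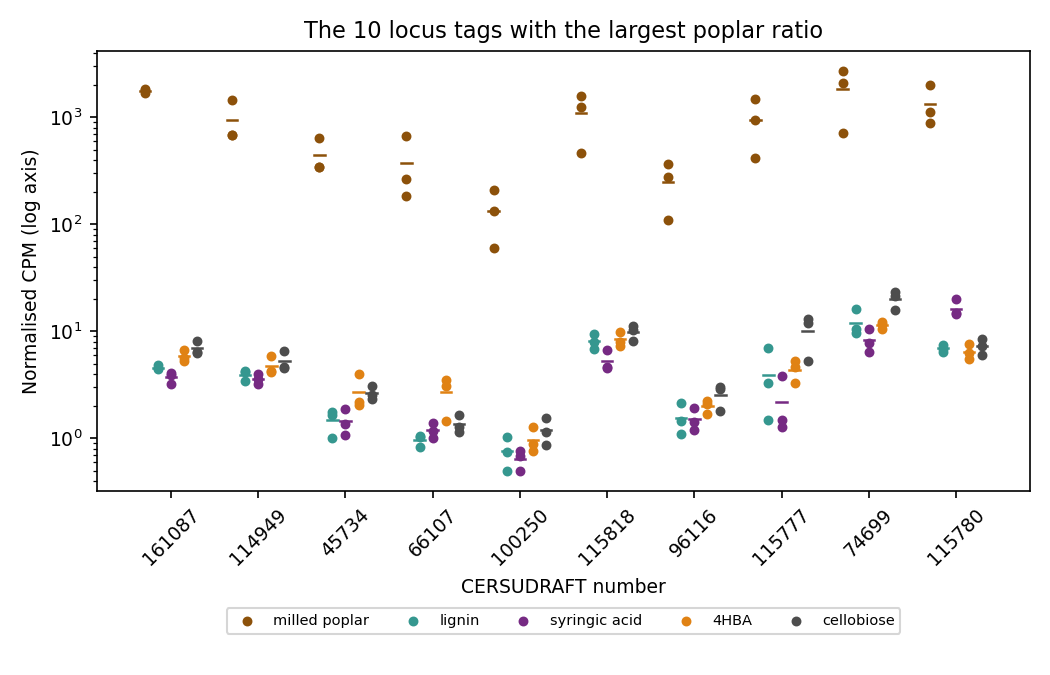
Normalised CPM on a log axis of the 10 locus tags with the largest ratio, by CERSUDRAFT number. Points are libraries and short lines are means of 3 libraries, and for every gene the 3 poplar points lie above the other 12.

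By read abundance on poplar CERSUDRAFT_94353 came first, with 9632, 8865 and 10777 CPM. It was abundant in the other cultures too, at 705 to 961 CPM with lignin, 425 to 476 CPM with syringic acid, 905 to 1047 CPM with 4HBA and 599 to 708 CPM on cellobiose, and its ratio was 10.1. CERSUDRAFT_58612 followed with 5479.6, 6016 and 8172 CPM on poplar and a ratio of 17.5. CERSUDRAFT_114435 had 6056, 5239 and 5602 CPM on poplar, and syringic acid was its highest other group, at 383, 623 and 545 CPM.

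Abundance and a large ratio met in CERSUDRAFT_83935, which was at 4503, 4559 and 6469 CPM on poplar and at most 83.3 CPM elsewhere (ratio 71.0). The same held for CERSUDRAFT_69622, at 2636, 2815 and 4475 CPM on poplar and at most 57.6 CPM elsewhere (ratio 64.6). CERSUDRAFT_89537, CERSUDRAFT_87441, CERSUDRAFT_115890 and CERSUDRAFT_82115 averaged 4073 CPM, 3700.2 CPM, 3665 CPM and 3607 CPM on poplar, with ratios between 11.3 and 19.3. CERSUDRAFT_118253 differed from these in being highest in poplar replicate 1, with 5329.8, 3644 and 2672 CPM on poplar. The 10 most abundant members held 39.7% of the summed CPM of all 186 on poplar. CPM are not divided by gene length, so this order is one of reads and not of transcripts.

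The poplar libraries varied more for these genes than for tested genes in general. The rule used the mean of the same 3 poplar values, which 1 high library can raise, so this too is a description. How far the choice itself raised the spread was not tested. The coefficient of variation over the 3 poplar libraries had a median of 23.6% for the 186 and 11.0% for all tested genes. Poplar replicate 3 was the highest for 135 members (72.6%), where it was the highest for 38.0% of all tested genes. Replicate 1 was the highest for 38 members and replicate 2 for 13. The level in replicate 3 was a median of 1.42 times that in replicate 1 over the 186, and 0.994 times over all tested genes. The variation passed 50% for 36 members, 29 of them highest in replicate 3 and 7 in replicate 1.

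CERSUDRAFT_112242 varied most, at 129, 229 and 595 CPM on poplar, a coefficient of 77.2%. CERSUDRAFT_116570 was at 10.7, 14.7 and 38.7 CPM (70.9%), and CERSUDRAFT_66107 came next (69.7%). Other members hardly varied in the same libraries. CERSUDRAFT_116212 was at 1193, 1172 and 1156 CPM (1.56%), with a ratio of 50.4. CERSUDRAFT_151145 was at 40.8, 39.4 and 40.3 CPM (1.69%) and CERSUDRAFT_136562 at 117, 121 and 122 CPM (1.95%).

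A poplar library left out of the choice gave a reading of the same measure that the rule had not used, while the libraries of the other groups stayed the same. Chosen without replicate 1, the rule kept 190 locus tags, of which 147 met both thresholds in replicate 1 alone, at a median ratio of 13.2. Without replicate 2 it kept 188, of which 166 met both in replicate 2 (median ratio 14.9). Without replicate 3 it kept 167, of which 155 met both in replicate 3 (median ratio 18.8). All 190, 188 and 167 lay above the highest of the other 12 libraries in the library left out, as did 32.6%, 31.6% and 31.9% of all tested genes in replicates 1, 2 and 3. Low means in those same 12 libraries had entered the choice, so these counts are a description. The lowest ratio in the library left out was 1.80 in replicate 1, 3.09 in replicate 2 and 3.99 in replicate 3.

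The deposited files number their genes, and some members sit side by side in that order. In the T. versicolor files of the series, 14385 of 14554 consecutive pairs (98.8%) rise in start position in a reference annotation. The G. subvermispora numbers were not set against coordinates and are used only as an order. Another member stood at an adjacent number, on either side, for 18 of the 186 (9.68%), and within 2 numbers on either side for 35 (18.8%). Of the 12127 other genes in the files 2.82% had a member at an adjacent number and 5.44% within 2 numbers. These 35 form 15 runs, 5 of them with 3 members. The strand setting of the counting is not given, so reads of overlapping neighbours cannot be told apart.

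The stretch from number 6473 to 6529, picked after the values were seen, holds 10 members, among them 5 of the 10 with the largest ratio. The other 42 tested genes in it had a median ratio of 0.628. CERSUDRAFT_115777 (number 6473) had 413, 952 and 1469 CPM on poplar and at most 13.0 CPM elsewhere. CERSUDRAFT_115780 (6484) had 876, 1126 and 1993 CPM on poplar and at most 19.9 CPM elsewhere, a value reached with syringic acid. CERSUDRAFT_96116 (6520) had 110.3, 277 and 368 CPM on poplar and CERSUDRAFT_96120 (6524) had 89.4, 212 and 364 CPM. Between those 2 lay CERSUDRAFT_74699 (6522), at 714, 2086 and 2725 CPM on poplar and 6.48 to 23.4 CPM elsewhere.

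At the end of the stretch CERSUDRAFT_115818 (6528) had 460.4, 1246 and 1590.4 CPM on poplar and 4.52 to 11.2 CPM elsewhere. Its neighbours CERSUDRAFT_115817 (6527) and CERSUDRAFT_96125 (6529) were far less abundant, at 29.4, 76.4 and 103 CPM and 30.1, 46.9 and 59.0 CPM on poplar. In all 10 members of the stretch poplar replicate 1 was the lowest and replicate 3 the highest, by factors of 1.96 to 4.07. Replicate 3 was the highest for 72.6% of all members and 38.0% of all tested genes in any case. How often the full order occurred among those was not counted. Other tested genes of the stretch went both ways. CERSUDRAFT_115798 had the same order, at 81.9, 164 and 174 CPM on poplar, and CERSUDRAFT_84965 the reverse, at 226, 187 and 136 CPM. A ratio above 4 was found for 3 of the 42 other genes, among them CERSUDRAFT_84984 (6523), with 5.15, between CERSUDRAFT_74699 and CERSUDRAFT_96120. The share of all tested genes above that ratio and their median ratio are not given here, so nothing is read from the values of the 42. Elsewhere, numbers 8720 to 8722 form a run of CERSUDRAFT_117716 at 639.7 CPM, CERSUDRAFT_117725 at 2160.0 CPM and CERSUDRAFT_117726 at 87.5 CPM on poplar.

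**Figure D4:**
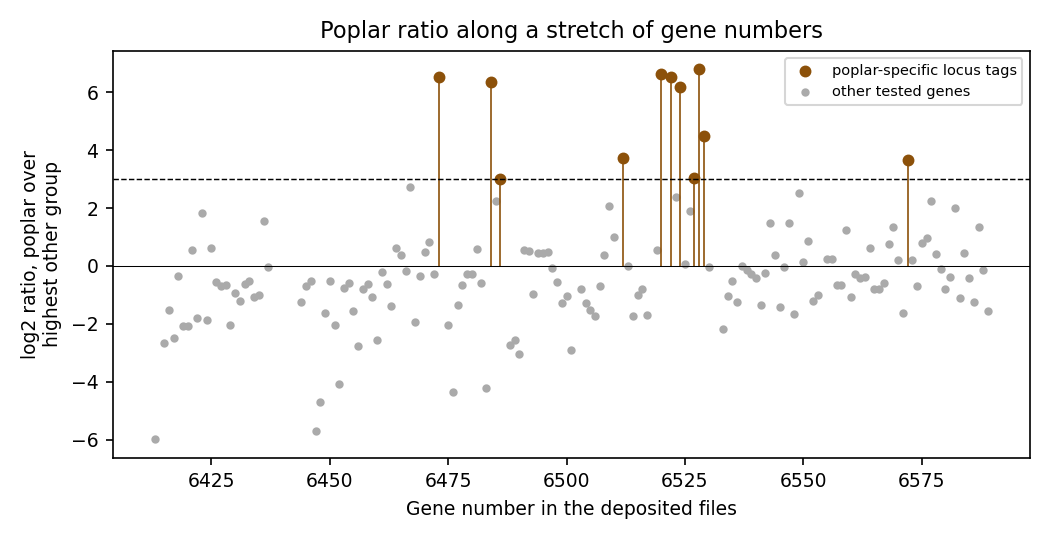
Ratio of the poplar mean to the highest other mean, on a log2 axis, against the gene number in the deposited files, for tested genes with a ratio above 0 around the stretch. Brown points with stems are members and grey points other tested genes, the dashed line is the ratio of 8, and the members of the stretch have ratios of 8.02 to 111.

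How the members moved among the 4 groups without poplar was not used by the rule, apart from its upper limit on each group. It was tested with edgeR's quasi-likelihood F-test over all 10860 genes, at a Benjamini-Hochberg adjusted p below 0.05. The fit took the spread of each gene from all 15 libraries, poplar included, so the poplar values entered these tests. With the 2 groups fitted alone, 84 members fell and 25 rose with lignin against cellobiose, where 28.5% of all genes fell and 29.7% rose. How far the poplar spread set the members' shares was not tested. In every pair of groups named below the libraries did not overlap for the genes that are named. Those genes were picked as the largest called changes, so this follows in large part from the choice and is no separate support. The share of all tested genes without overlap is not given here.

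With lignin against cellobiose 61 members fell and 12 rose, or 32.8% and 6.45%, where 22.8% of all genes fell and 24.5% rose. The median log2 change was -0.32 for the 186 and 0.01 for all tested genes. CERSUDRAFT_59714 fell to 12.7, 9.38 and 11.2 CPM with lignin, against 44.6, 45.6 and 51.1 CPM on cellobiose (log2 change -2.09, SE 0.25, adjusted p = 2.08e-05). CERSUDRAFT_100266 fell to 4.93, 4.58 and 4.28 CPM with lignin, against 18.3, 22.7 and 17.4 CPM on cellobiose (log2 change -2.08, SE 0.16, adjusted p = 7.73e-07). CERSUDRAFT_125226 fell by 1.80 on the log2 scale. In the other direction CERSUDRAFT_125029 rose to 9.17, 15.1 and 10.5 CPM with lignin, against 4.36, 3.50 and 2.10 CPM on cellobiose (log2 change 1.82, SE 0.36, adjusted p = 0.000960). The log2 changes of CERSUDRAFT_21396 (1.32) and CERSUDRAFT_77275 (1.08) also passed the test. The first was lost without any 1 of the cellobiose libraries or lignin replicate 1 or 3, at adjusted p of 0.0597 to 0.0994. The second was lost without cellobiose replicate 1 or 3 or lignin replicate 2 or 3, at adjusted p of 0.0637 to 0.113. The 12 rises became 5 without cellobiose replicate 1, 4 without cellobiose replicate 3 and 7 without any 1 lignin library, where 18.6% to 20.3% of all genes rose.

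With syringic acid against cellobiose 82 members fell and 12 rose, or 44.1% and 6.45%, where 29.7% of all genes fell and 26.8% rose. The median was -0.39 for the 186 and -0.04 for all tested genes. CERSUDRAFT_59714 and CERSUDRAFT_100266 fell here too, to 13.0, 7.30 and 6.58 CPM and to 5.61, 3.66 and 3.65 CPM with syringic acid, against the cellobiose values above (log2 changes -2.39 and -2.18). CERSUDRAFT_115777 of the numbered stretch fell to 1.50, 3.85 and 1.29 CPM with syringic acid, against 12.1, 13.0 and 5.33 CPM on cellobiose (log2 change -2.23, SE 0.61, adjusted p = 0.00616). CERSUDRAFT_114435, among the most abundant members on poplar, rose to 383, 623 and 545 CPM with syringic acid, against 187, 169.6 and 179.9 CPM on cellobiose (log2 change 1.53, SE 0.18, adjusted p = 1.08e-05). CERSUDRAFT_110246 rose by 1.43 and CERSUDRAFT_113138 by 1.41 on the log2 scale.

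Both comparisons cross the library type and the mark in the labels. A term for library type can be estimated here only from 4HBA, as replicate 1 against replicates 2 and 3, so fits with it against cellobiose rest on that 1 library. Without that term edgeR and DESeq2 each gave 12 rises with lignin, where 24.5% and 23.3% of all genes rose. With that term lignin gave 14 falls and 0 rises by edgeR (4 rises at an unadjusted p below 0.05). The 14 falls are 7.53% of the members, where 6.09% of all genes fell and 5.26% rose. Syringic acid gave 22 falls and 5 rises with the term, or 11.8% and 2.69%, where 14% of all genes fell and 11% rose. Fewer calls were thus made among all genes as well as among the members. The median of the 186 was then -0.25 with lignin and -0.40 with syringic acid, and that of all tested genes -0.02 and -0.06. In that fit CERSUDRAFT_125029 lost the call with lignin at a log2 change of 2.12 ± 0.784 (SE, adjusted p = 0.0985), CERSUDRAFT_21396 at 1.12 ± 1.03 (adjusted p = 0.521) and CERSUDRAFT_77275 at 1.20 ± 0.901 (adjusted p = 0.420). With syringic acid CERSUDRAFT_110246 lost it at 1.26 ± 0.517 (adjusted p = 0.0929) and CERSUDRAFT_115777 at -1.82 ± 1.18 (adjusted p = 0.280).

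With 4HBA against cellobiose 23 members rose and 8 fell, or 12.4% and 4.30%, where 17.5% of all genes rose and 14% fell. The median was 0.07 for the 186 and 0.04 for all tested genes. CERSUDRAFT_110246 rose to 71.0, 77.2 and 82.7 CPM with 4HBA, against 20.7, 22.7 and 23.7 CPM on cellobiose (log2 change 1.78, SE 0.29, adjusted p = 0.000555). CERSUDRAFT_91390 rose by 1.67 and CERSUDRAFT_116184 by 1.52 on the log2 scale. CERSUDRAFT_122269 fell to 10.7, 8.91 and 9.33 CPM with 4HBA, against 22.7, 31.3 and 22.6 CPM on cellobiose (log2 change -1.42, SE 0.33, adjusted p = 0.00592). CERSUDRAFT_76121 fell by 0.85 and CERSUDRAFT_59714 by 0.84. With library type as a term these 3 were not called, at log2 changes of -1.26 ± 0.558, -0.98 ± 0.375 and -0.65 ± 0.359 in the same order (SE; adjusted p = 0.187, 0.129 and 0.292). CERSUDRAFT_76121 also lost the call without 4HBA replicate 3, and CERSUDRAFT_59714 without cellobiose replicate 3 or 4HBA replicate 2 or 3.

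The 23 rises with 4HBA became 15 (8.06%) without cellobiose replicate 3, where 11.6% of all genes rose, and 37 (19.9%) without poplar replicate 3, where 20% rose. With library type as a term they became 12 (6.45%), where 4.11% of all genes rose, and the median was 0.10 for the 186 and -0.00 for all tested genes. The 8 falls became 14 without 4HBA replicate 1, 4 without 4HBA replicate 2, 5 without 4HBA replicate 3, 13 without poplar replicate 1, 14 without poplar replicate 3 and 1 with library type as a term. In these refits 9.78% to 15.8% of all genes fell, and 3.66% with the term, each above the members' share.

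Both acids were given at 2 mM, and syringic acid differs from 4HBA by methoxy groups on either side of the hydroxyl. This comparison was added after the data were seen. With syringic acid against 4HBA 88 members were lower and 9 higher, or 47.3% and 4.84%, where 29.3% of all genes were lower and 22.2% higher. The median was -0.49 for the 186 and -0.07 for all tested genes. CERSUDRAFT_100266 was at 5.61, 3.66 and 3.65 CPM with syringic acid, against 37.9, 34.4 and 33.3 CPM with 4HBA (log2 difference -3.03, SE 0.16, adjusted p = 2.66e-08). CERSUDRAFT_91390 was at 0.876, 0.885 and 0.746 CPM with syringic acid, against 4.95, 6.69 and 5.28 CPM with 4HBA (log2 difference -2.78, SE 0.15, adjusted p = 3.39e-08). CERSUDRAFT_151145, one of the steadiest members on poplar, was lower as well (log2 difference -2.44). CERSUDRAFT_115780 of the numbered stretch was higher, at 14.4, 19.9 and 14.8 CPM with syringic acid, against 7.58, 6.26 and 5.56 CPM with 4HBA (log2 difference 1.37, SE 0.26, adjusted p = 0.000570). CERSUDRAFT_159511 was higher by 1.31 and CERSUDRAFT_117684 by 1.04 on the log2 scale. The comparison crosses the mark in the labels, whose part was not tested. Without 4HBA replicate 1, which leaves libraries of 1 type but still crosses the mark, 82 members were lower and 7 higher, or 44.1% and 3.76%, where 27.9% of all genes were lower and 21.3% higher.

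Lignin and syringic acid share both library type and the mark in the labels. With lignin against syringic acid 24 members were higher and 16 lower, or 12.9% and 8.60%, where 18.7% of all genes were higher and 15% lower. The 16 became 10 without lignin replicate 1, where 11.7% of all genes were lower. The median was 0.17 for the 186 and 0.03 for all tested genes. CERSUDRAFT_125029 was at 9.17, 15.1 and 10.5 CPM with lignin, against 1.88, 4.21 and 1.31 CPM with syringic acid (log2 difference 2.28, SE 0.34, adjusted p = 0.000225). CERSUDRAFT_151145 was higher by 1.42 and CERSUDRAFT_112261 by 1.23 on the log2 scale. CERSUDRAFT_115780 was at 6.92, 6.37 and 7.51 CPM with lignin, against 14.4, 19.9 and 14.8 CPM with syringic acid (log2 difference -1.24, SE 0.25, adjusted p = 0.00198). CERSUDRAFT_26676 was also lower (log2 difference -1.17). So was CERSUDRAFT_118253 (-1.21), which lost the call without lignin replicate 1 or syringic acid replicate 1 (adjusted p = 0.0629 and 0.0768).

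The next counts were not planned and use the same libraries as the comparisons above, so they describe the same differences and add no separate support. The means with lignin and with syringic acid were both below those with 4HBA and on cellobiose for 105 members (56.5%), and for 28.3% of all tested genes. Within 1 library type, all 6 lignin and syringic acid libraries lay below 4HBA replicates 2 and 3 for 86 members (46.2%), against 24.9% of all tested genes. They lay above them for 9 members (4.84%), against 19.6%. The mark in the labels divides these libraries in the same way, and its part in the result was not tested.

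**Figure D5:**
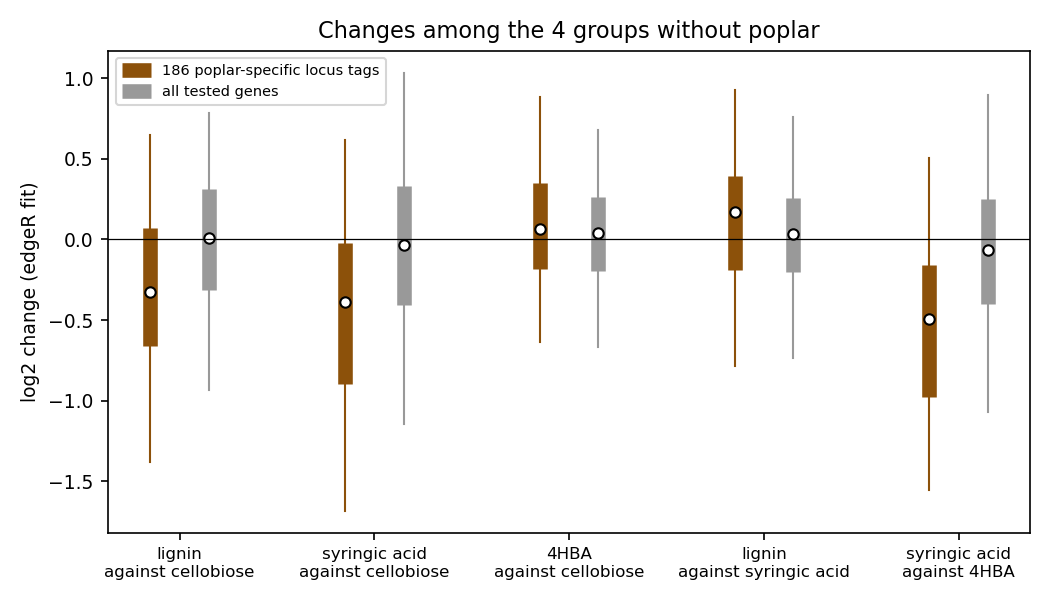
Log2 changes from the edgeR fit in 5 comparisons without poplar, for the 186 locus tags (brown) and all tested genes (grey). Circles are medians, thick bars run between the quartiles and thin lines from the 5th to the 95th percentile, and the brown medians are lowest in the comparison of syringic acid with 4HBA, at -0.49.

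The rule leaves out genes with a symbol, of which 8 met both thresholds and are likewise given without a test. A symbol is read here as the enzyme class it abbreviates, which the counts alone cannot check, and near-identical family members can split or lose reads. Manganese peroxidases (MnP) are secreted heme enzymes that oxidise manganese, which in turn attacks phenolic lignin. MnP6 was at 1075, 986 and 629.9 CPM on poplar and 15.8 to 25.1 CPM elsewhere, a ratio of 42.3. MnP3 had a ratio of 24.4 and MnP8 of 14.8. MnP6 and MnP8 were lowest in poplar replicate 3, the library that was highest for most of the 186. The rest of the 8 were highest in that library, like most of the 186.

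Heme-thiolate peroxidases (HTP) transfer oxygen to organic substrates. HTP7 was at 5212, 6042 and 7641 CPM on poplar with a ratio of 9.27, and was highest elsewhere with 4HBA, at 565 to 755 CPM. HTP5 was at 2489.8, 2686 and 3103 CPM on poplar (ratio 20.5) and HTP8 at 49.1, 37.5 and 52.4 CPM (ratio 13.1). CsMn01 (ratio 32.9) and msf2 (ratio 15.8) carry symbols that the files do not explain.

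Most genes of these families did not meet the rule, and they went both ways on poplar; the counts below include those that met both thresholds. Among all tested genes 37.8% rose and 41.5% fell against lignin, 38% rose and 41% fell against syringic acid, 35.9% rose and 39.8% fell against 4HBA, and 37.7% rose and 38.4% fell against cellobiose. Of 13 MnP genes 9 rose and 3 fell on poplar against lignin (median log2 change 1.40), 9 rose and 4 fell against syringic acid (1.42), 10 rose and 2 fell against 4HBA (0.98), and 9 rose and 4 fell against cellobiose (1.24). Of 9 HTP genes 7 rose and 1 fell against lignin (2.94), 8 rose and 1 fell against syringic acid (2.56) and against 4HBA (2.80), and 7 rose and 2 fell against cellobiose (2.41). The CsMn genes went different ways by comparison. Of 19, 8 rose and 7 fell against lignin (-0.08), 7 rose and 10 fell against syringic acid (-0.28), 11 rose and 7 fell against 4HBA (0.64), and 9 rose and 7 fell against cellobiose (0.04). Of 7 genes named Cslcs, read as laccases, which oxidise phenols, 3 rose and 2 fell against lignin (0.50), 3 rose and 3 fell against syringic acid (-0.50), 2 rose and 2 fell against 4HBA (0.22), and 4 rose and 2 fell against cellobiose (0.37). The pair of lignin peroxidases split in all 4 comparisons, with 1 up and 1 down, at very unlike levels. LiP1, the one that rose, averaged only 0.851 CPM on poplar and at most 0.569 CPM in any other group. LiP2, the one that fell, averaged 314 CPM on poplar and 1134 CPM in its highest other group. Csfet3, read as a ferroxidase of iron uptake, fell by 4.22 on the log2 scale against lignin and by 3.55 against cellobiose. All genes together had a median of -0.07 against lignin and syringic acid, -0.06 against 4HBA and -0.02 against cellobiose.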

How the data were processed

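The deposited values are unnormalized read counts per gene, 1 file per library. Per the labels' protocols, ribosomal RNA was removed with a yeast kit and libraries were stranded. FastQC, Bowtie2, Bowtie and HTSeq stand in the submitters' processing notes; versions, settings, strand mode and build: not given in the sources used here. Closing entries that name no gene, 7.84% to 27.9% of counts, were left out. Counts were filtered with filterByExpr by group, scaled by TMM and fitted in edgeR 4.0.16 (R 4.3.3) with 1 mean per group over 15 libraries. Tests were two-sided, adjusted over all tested genes. The standard error is the log2 change over the root of F. The scripts were tested on simulated data. Alternatives were DESeq2 1.42.0, other scalings, no filter, both groups alone, library type as a term, and each library left out. The members and lists were chosen with earlier results of these data known. Named members were the 10 with the highest poplar CPM, the 10 with the largest ratio, those nearest each threshold, the 3 most and 3 least variable, and up to 3 rises and 3 falls per tested comparison in which the higher group reached 1 CPM. Genes named for their place in the order were chosen after their values were seen.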

Additional observations from a re-analysis of the deposited data

How the results depend on the processing

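The 186 locus tags became 188 with RLE scaling, 150 with upper-quartile scaling and 137 by library size alone, of which 186, 150 and 135 were among the 186. They became 448 at a ratio of 4 and 88 at a ratio of 16, and 167 to 190 without single libraries. Against cellobiose with both groups fitted alone, the rises became 25 with lignin, 20 with syringic acid and 27 with 4HBA. Of all genes 29.7%, 30.7% and 19% rose in those fits. The falls became 84, 88 and 20 in the same order, where 28.5%, 29.2% and 18.2% of all genes fell. Library type as a term is estimated from 4HBA replicate 1 against replicates 2 and 3 alone. With it the rises by edgeR became 0 with lignin, 5 with syringic acid and 12 with 4HBA, where 5.26%, 11% and 4.11% of all genes rose. At an unadjusted p below 0.05 lignin gave 4 rises with the term. Without it edgeR and DESeq2 each gave 12 rises with lignin. The falls with the term became 14, 22 and 1 in the same order. In those fits 6.09%, 14% and 3.66% of all genes fell, against 7.53%, 11.8% and 0.538% of the members, while the members' medians were -0.25, -0.40 and 0.10 and those of all genes -0.02, -0.06 and -0.00. The cause of the lower counts was not tested. Leaving out single libraries gave 4 to 17 rises and 50 to 83 falls with lignin, 10 to 17 rises and 62 to 88 falls with syringic acid, and 15 to 37 rises and 4 to 14 falls with 4HBA. The shares of all genes moved in these refits as well. With lignin 18.6% to 26.3% rose and 19.4% to 26.1% fell. With syringic acid 22.8% to 28.3% rose and 25.4% to 31.4% fell. With 4HBA 10.6% to 20% rose and 9.78% to 15.8% fell. For lignin against syringic acid, leaving out single libraries gave 19 to 33 higher and 10 to 22 lower. Of all genes 12.8% to 20.4% were higher and 10.5% to 17.5% lower. For syringic acid against 4HBA it gave 6 to 12 higher and 77 to 100 lower, where 18.8% to 23.6% and 23.9% to 31% of all genes were so. Among the refits of named changes 601 kept the call and 23 lost it, and none changed sign. Of the refits of medians 94 moved by less than the spread between replicates and 10 by more, and of those of the ratio of poplar to the highest other group 149 and 11. With library type as a term the members' share of falls with syringic acid went below that of all genes and their share of rises with 4HBA above it, where the fit without it had both the other way round. No paired analysis was possible because the labels give no replicate numbers that pair libraries across groups.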
